A study of Mus musculus with 24 samples.

Results

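A set of 7 transcription factor genes of the interferon and gp130 cytokine pathways were followed across the loss of the histone acetyltransferase MOF. They are Irf1, Irf2, Irf3, Irf7, Irf9, Stat2 and Stat3, taken by their symbol from 4 comparison tables that together list 43626 genes. Both fibroblast tables listed all 7 genes, the podocyte table with Adriamycin listed 6, and the podocyte table with vehicle listed 3. Mouse embryonic fibroblasts (MEFs, passage 2) labelled Mof knockout were set against wild-type MEFs. Differentiated MPC5 cells, a mouse podocyte line (passage 20), carried a Mof knockdown and were set against cells with a scrambled control. Each pair was compared after Adriamycin and, separately, after vehicle (DMSO). MEFs received 0.1 µg/ml and podocytes 0.25 µg/ml of Adriamycin (doxorubicin), a topoisomerase II poison, both over 24 h. The 24 samples formed 8 groups of 3. The allele or reagent behind the knockout and knockdown, and the number of clones or litters, are not given in the sources used here. Neither is whether the 3 samples of a group were separate cultures, so p-values measure a spread that may be technical.

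The tables hold no value per sample. For each gene they give the mean normalized count over the samples of the table and a log2 fold change with its standard error (SE). Fold changes are Mof-depleted over control, a direction read from Kat8, the gene of MOF, which was lower in each table (-1.71 and -1.96 in MEFs with Adriamycin and vehicle, -1.24 and -1.49 in podocytes, in the authors' deposited table of each). A gene was called changed at an adjusted p below 0.05. The podocyte tables were found to list only such genes, so a gene missing there has no value. Of the fibroblast markers examined, the collagen genes Col1a1 and Col1a2 had mean counts of 116732 and 49353 in MEFs with Adriamycin and 180211 and 87394 with vehicle. The 11 fibroblast markers did not move together in knockout MEFs: 2 rose and 2 fell with Adriamycin, and 2 rose and 1 fell with vehicle. Calls thus made up 36.4% with Adriamycin and 27.3% with vehicle, against 32.7% and 37.5% of all genes tested, so these counts show nothing particular to the markers. Lum rose by 1.30 ± 0.23 with Adriamycin and 2.42 ± 0.21 with vehicle and Dcn by 0.69 ± 0.27 and 1.42 ± 0.17, both genes of matrix proteoglycans, in the authors' deposited tables. Col1a2 was at -0.48 ± 0.20 with Adriamycin and -0.33 ± 0.11 with vehicle in the authors' deposited tables. The part of these shifts in the results on the IRF and STAT genes was not tested. The podocyte tables listed Synpo and Podxl in both drug conditions and did not list the slit diaphragm gene Nphs1, which leaves that marker unexamined.

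Interferon regulatory factors (IRFs) and STAT proteins carry interferon signals to the genome. Viral nucleic acid sensors lead to phosphorylation of IRF3 and IRF7, which switch on interferon genes. Secreted type I interferon binds its receptor, and the kinases JAK1 and TYK2 phosphorylate STAT proteins, STAT2 among them, which join IRF9 in the complex ISGF3. This complex binds the interferon-stimulated response element (ISRE) in front of many genes, among them those of its own subunits and Irf7. IRF1 is an activator and IRF2 mostly a repressor at related elements. STAT3 is driven mainly by cytokines of the interleukin 6 family through the receptor gp130, and binds gamma-activated sites (GAS).

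The promoters of the genes that rose most in MEFs, and of Irf1 and Irf2 beside them, are shown. Promoters are part of the DNA through which IRF and STAT proteins can act on a gene, and no binding was measured here. The sequences are from RefSeq (GRCm38.p6) and run 5′ to 3′ on the strand of the gene, from 250 bases before the annotated start to 50 after it. Capitals mark ISRE letters (GAAANNGAAA, either strand) and GAS letters (TTCNNNGAA, which reads the same on both strands).
Irf7, chr7:141266375-141266674, minus strand: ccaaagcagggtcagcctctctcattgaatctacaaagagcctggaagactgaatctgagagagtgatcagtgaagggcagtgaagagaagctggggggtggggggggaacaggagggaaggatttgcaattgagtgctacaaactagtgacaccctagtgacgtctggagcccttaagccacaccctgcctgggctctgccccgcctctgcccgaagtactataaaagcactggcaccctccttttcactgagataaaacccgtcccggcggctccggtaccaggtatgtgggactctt
Irf9, chr14:55603735-55604034, plus strand: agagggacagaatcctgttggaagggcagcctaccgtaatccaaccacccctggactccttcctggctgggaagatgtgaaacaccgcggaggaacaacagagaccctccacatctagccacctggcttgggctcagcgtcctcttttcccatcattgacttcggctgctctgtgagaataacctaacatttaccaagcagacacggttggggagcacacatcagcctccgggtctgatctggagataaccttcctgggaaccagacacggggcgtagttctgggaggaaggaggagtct
Stat2, chr10:128270248-128270547, plus strand: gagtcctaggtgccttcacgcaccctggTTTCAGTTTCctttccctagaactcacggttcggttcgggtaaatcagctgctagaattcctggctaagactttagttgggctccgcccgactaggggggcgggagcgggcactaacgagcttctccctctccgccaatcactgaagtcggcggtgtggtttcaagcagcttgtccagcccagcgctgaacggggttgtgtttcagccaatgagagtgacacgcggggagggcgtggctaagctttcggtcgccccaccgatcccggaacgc
Irf1, chr11:53769764-53770063, plus strand: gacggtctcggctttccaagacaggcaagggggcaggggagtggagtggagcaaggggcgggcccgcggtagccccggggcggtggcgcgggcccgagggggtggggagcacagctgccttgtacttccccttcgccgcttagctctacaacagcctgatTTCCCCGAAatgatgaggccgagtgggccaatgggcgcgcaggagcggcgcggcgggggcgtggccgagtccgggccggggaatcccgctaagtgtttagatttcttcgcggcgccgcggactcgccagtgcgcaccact
Irf2, chr8:46739495-46739794, plus strand: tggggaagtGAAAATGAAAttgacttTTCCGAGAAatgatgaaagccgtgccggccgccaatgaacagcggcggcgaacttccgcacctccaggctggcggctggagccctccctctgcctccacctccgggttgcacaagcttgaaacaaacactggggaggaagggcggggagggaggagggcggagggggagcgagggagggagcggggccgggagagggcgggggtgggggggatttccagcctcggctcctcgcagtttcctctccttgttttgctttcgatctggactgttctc

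ISRE letters stood in the Stat2 promoter (bases -222 to -213 from the start) and the Irf2 promoter (-241 to -232). GAS letters stood in the Irf1 promoter (-90 to -82) and, beside its ISRE, in that of Irf2 (-224 to -216). No match to either was found in the windows of Irf7, Irf3 or Stat3, in either start of Irf9, or in the second start of Irf1. Over all 32851 RefSeq promoters of 300 bases, 3.44% held the ISRE letters and 8.30% the GAS letters. A match describes letters only, and its absence says nothing of a factor that binds elsewhere or to a variant site.

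**Figure D1:**
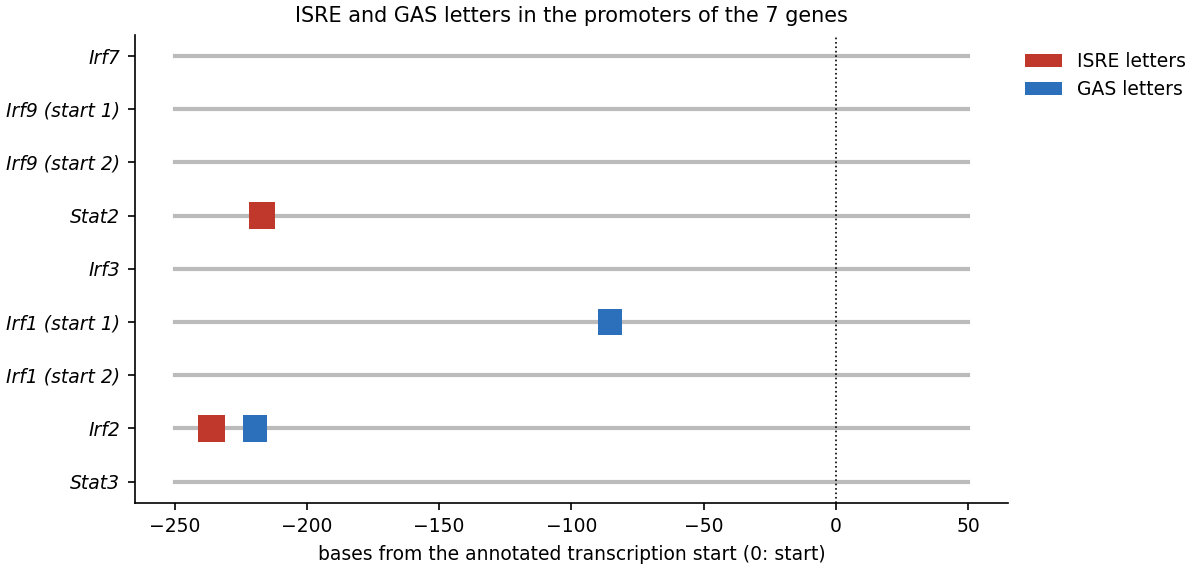
Position of ISRE (red) and GAS (blue) letters in 9 promoter windows of the 7 genes, in bases from the annotated start. Stat2 and Irf2 hold an ISRE match, Irf1 (first start) and Irf2 a GAS match, and the other windows hold neither.

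In fibroblasts, loss of MOF was accompanied by higher Irf7, Irf9 and Stat2 under both drug conditions, while no change was called for Irf1, Irf2, Irf3 and Stat3. Thus 3 of 7 genes passed the threshold with Adriamycin, where 32.7% of all genes tested did, and 3 of 7 with vehicle, where 37.5% did. Higher calls made up 16.6% with Adriamycin and 17.8% with vehicle, and lower calls 16.1% and 19.6%. The count of 3 in 7 is near the background of all calls. The size of the changes was less common: 2 of the 7 rose at least 2-fold with Adriamycin, against 2.42% of all genes tested, and 3 of the 7 with vehicle, against 5.51%.

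Irf7 encodes the factor that amplifies type I interferon production once induced. Its log2 fold change in the authors' deposited table was 1.39 ± 0.29 (SE) in MEFs with Adriamycin (DESeq2 adjusted p 1.92e-05) and 4.61 ± 0.35 with vehicle (3.38e-36). These are 2.61-fold and 24.4-fold increases, with 95% intervals of 1.77 to 3.85 and 15.1 to 39.5. Among all genes tested, the change of Irf7 was the 131st highest of 14139 with Adriamycin and the 5th highest of 15605 with vehicle. Its mean count was 433 with Adriamycin and 200.3 with vehicle in the authors' deposited tables. In bulk RNA, a change in the cells of a type and a change in RNA per cell cannot be told apart.

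The mean count and the fold change together imply a level for each group, if both groups weigh equally. Irf7 then stood at 626 normalized counts in knockout and 239 in wild-type MEFs with Adriamycin, and at 385 in knockout and 15.8 in wild-type MEFs with vehicle. The lowest of these 4 levels is that of wild-type cells given vehicle. The level with Adriamycin was 1.63 times that with vehicle in knockout cells and 15.2 times in wild-type cells. The 2 tables were normalized separately by the authors, so levels set across them carry no test, and shrinkage of the fold change would raise the implied wild-type level.

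Stat2 and Irf9 encode subunits of ISGF3. In MEFs with Adriamycin, Stat2 was at 1.06 ± 0.16 (DESeq2 adjusted p 6.75e-09) and Irf9, the DNA-contacting subunit, at 0.81 ± 0.13 (1.73e-08) in the authors' deposited table. With vehicle, Stat2 was at 2.22 ± 0.17 (1.41e-36) and Irf9 at 1.98 ± 0.16 (DESeq2 adjusted p 7.65e-35) in the authors' deposited table. On the linear scale Stat2 rose 2.08-fold with Adriamycin and 4.66-fold with vehicle, and Irf9 rose 1.76-fold and 3.95-fold. Implied Stat2 levels were 2372 in knockout and 1139 in wild-type MEFs with Adriamycin, and 1766 in knockout and 379 in wild-type MEFs with vehicle. For Irf9 they were 957 in knockout and 545 in wild-type cells with Adriamycin, and 1145 and 290 with vehicle. As with Irf7, wild-type cells given vehicle had the lowest implied level of each gene.

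Irf3, whose protein is present before infection and is switched on by phosphorylation, was at 0.12 ± 0.10 in MEFs with Adriamycin and 0.08 ± 0.09 with vehicle in the authors' deposited table (DESeq2 adjusted p 0.394 and 0.550). Its 95% intervals, -0.08 to 0.32 and -0.10 to 0.26, did not reach a 2-fold change. They rest on groups of 3 samples, whose spread may be technical, and on fold changes that may be shrunken. Irf1 was at 0.15 ± 0.15 and 0.25 ± 0.13 (DESeq2 adjusted p 0.477 and 0.133), and Irf2 at -0.08 ± 0.12 and 0.08 ± 0.13 (0.654 and 0.681), with Adriamycin and vehicle in the authors' deposited tables. Stat3, the most abundant of the 7 by mean count (4319 with Adriamycin and 4883 with vehicle), was at -0.10 ± 0.11 and 0.19 ± 0.09 (DESeq2 adjusted p 0.524 and 0.0875) in the authors' deposited tables. None of these 4 genes passed the threshold in MEFs.

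**Figure D2:**
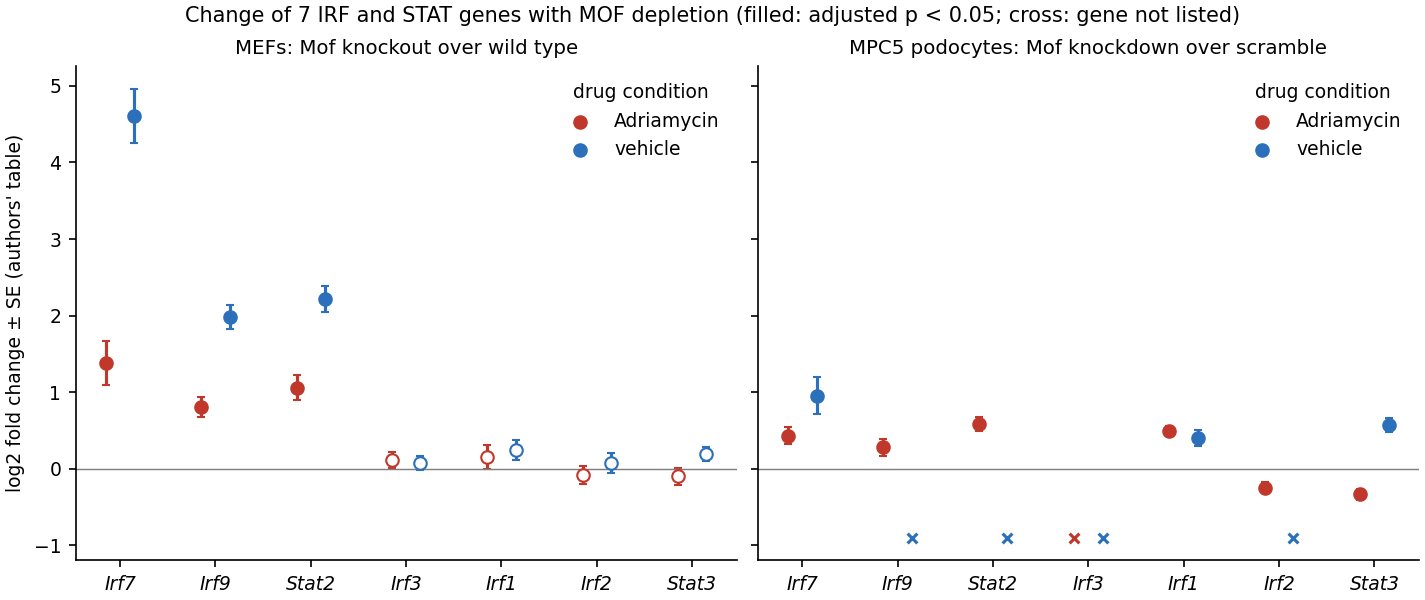
Log2 fold change ± SE of the 7 genes, Mof-depleted over control, in MEFs (left) and podocytes (right), with Adriamycin in red and vehicle in blue. Filled points passed an adjusted p of 0.05, open points did not, and crosses mark genes the podocyte table does not list; Irf7, Irf9 and Stat2 stand above 0 in MEFs and the other 4 genes lie between -0.10 and 0.25.

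Per kilobase of exon (GENCODE M21), the order of implied levels in knockout MEFs given vehicle was Stat3 (547 normalized counts per kb), Stat2 (298), Irf3 (265), Irf9 (212), Irf7 (102), Irf1 (101) and Irf2 (57.6). In wild-type MEFs given vehicle it was Stat3 (478), Irf3 (251), Irf1 (84.9), Stat2 (64.0), Irf2 (54.6), Irf9 (53.8) and Irf7 (4.18). Irf7 was thus last in wild-type cells and level with Irf1 in the knockout. With Adriamycin the knockout order was Stat3 (438), Stat2 (400.2), Irf3 (336), Irf9 (178), Irf7 (166), Irf1 (74.4) and Irf2 (72.5 per kb). In wild-type cells given Adriamycin, Stat3 (469) and Irf3 (310 per kb) led, then Stat2 (192), Irf9 (101), Irf2 (76.6), Irf1 (67.0) and Irf7 (63.4). The tables give no spread over samples for a level, so close neighbours in these orders cannot be told apart. Exon length counts every base of any annotated exon, 3.78 kb for Irf7 and 5.39 kb for Irf9. It can exceed the length of the mRNA by a different factor for each gene, and the orders depend on it.

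**Figure D3:**
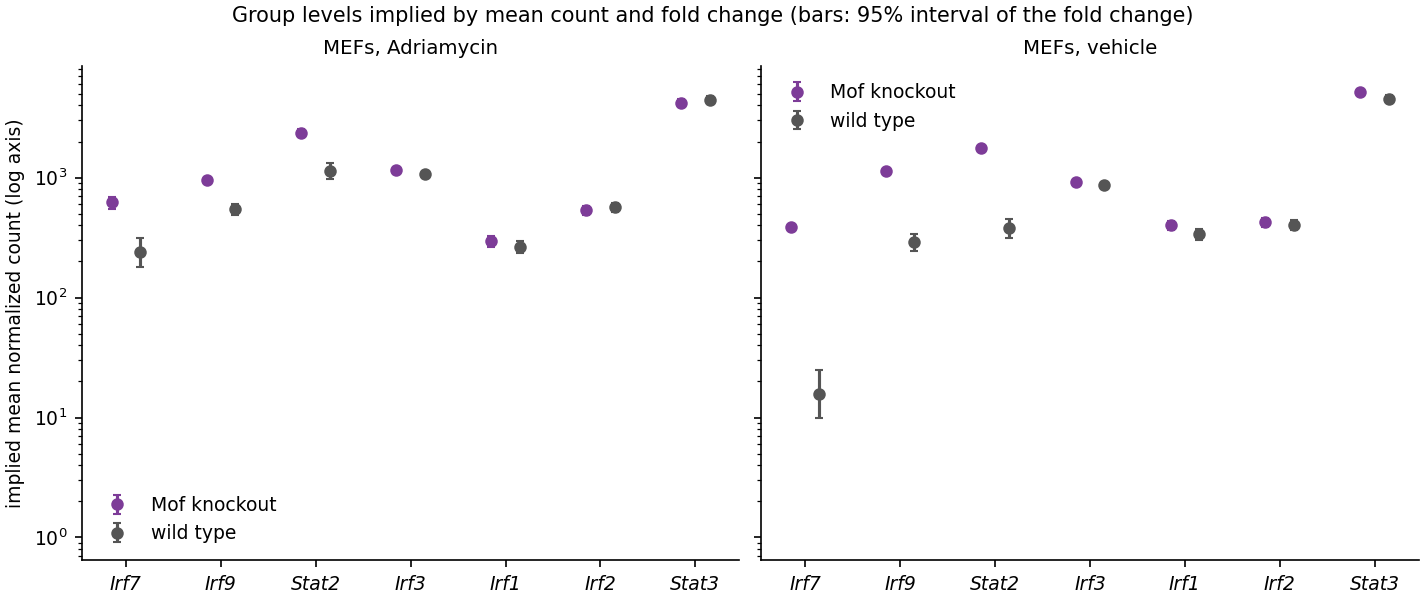
Normalized count per group implied by the mean count and fold change of the authors' tables, in Mof knockout (purple) and wild-type (grey) MEFs, on a log axis. Bars are the 95% interval of the fold change; Irf7 in wild-type cells given vehicle is lowest, at 15.8.

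A dependence of these effects on the drug was tested gene by gene. The log2 fold change found under vehicle was subtracted from the one found under Adriamycin and divided by the SE of the difference (z test, Benjamini-Hochberg over 13973 genes). The effect was smaller with Adriamycin for Irf7, by -3.22 ± 0.45 (adjusted p 8.67e-10), for Irf9, by -1.17 ± 0.20 (1.50e-06), and for Stat2, by -1.16 ± 0.24 (7.61e-05). The difference was called for 3 of the 7 genes, all lower with Adriamycin, and for 7.09% of all genes, 3.49% higher and 3.61% lower with Adriamycin. Irf7 had the 6th lowest difference of all. For Stat3 the difference was -0.29 ± 0.15 (adjusted p 0.228, 95% interval -0.58 to -0.01), and for Irf1, Irf2 and Irf3 it lay between -0.16 and 0.04 (adjusted p 0.701 to 0.920).

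**Figure D4:**
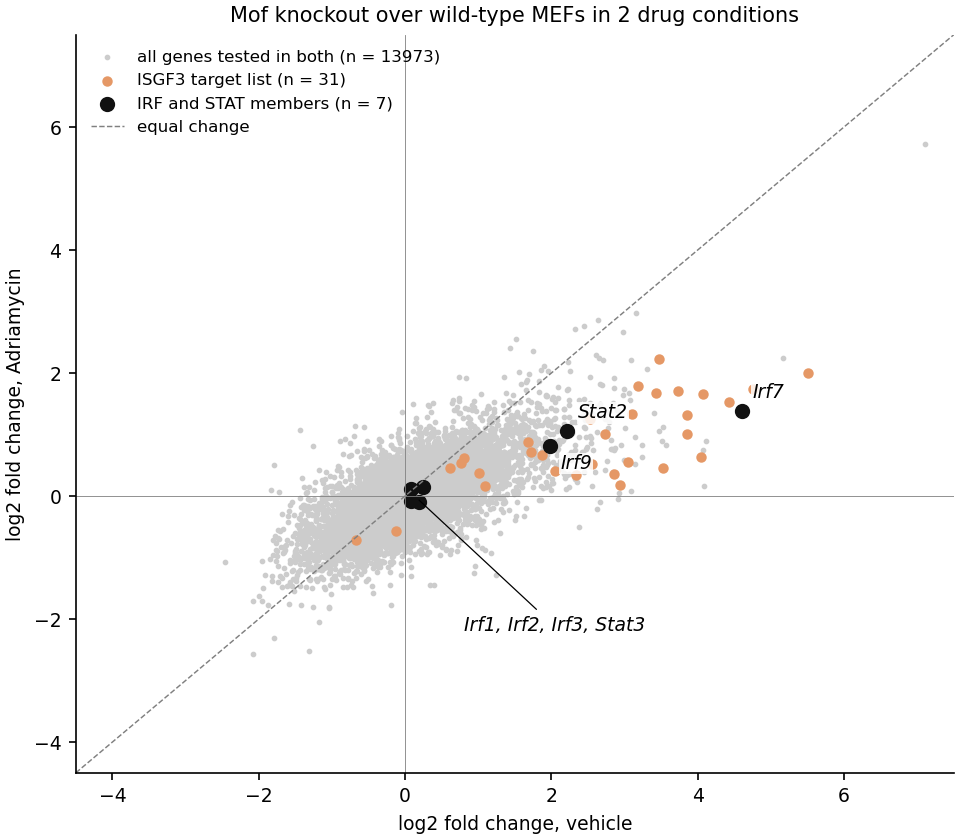
Log2 fold change of Mof knockout over wild-type MEFs with vehicle (x axis) and Adriamycin (y axis) for 13973 genes in grey, 31 ISGF3 targets in orange and the 7 IRF and STAT genes in black. Irf7, Irf9 and Stat2 lie right of the dashed line of equal change, and the other 4 lie near the origin.

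The genes nearest to Irf7 in this plane were searched among the 10092 genes whose mean count reached 100 in both MEF tables, by the distance between the pairs of log2 fold changes. They were Ifit1 (distance 0.23), Isg15 (0.39), Rtp4 (0.60), Xaf1 (0.76) and Svop (0.84). Nearest to Stat2 were Ifi204 (0.02), Icam1 (0.03), Apobec1 (0.04), Mmp15 (0.10) and Ptprv (0.16), and to Irf9 Trim7 (0.11), Rnf213 (0.12), Tap1 (0.12), Parp9 (0.18) and Tmem151a (0.19). Each likeness rests on 2 comparisons.

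Of 5 relatives outside the 7 genes that were tested and are reported here, Stat5b fell, at -0.63 ± 0.12 with Adriamycin and -0.50 ± 0.11 with vehicle (DESeq2 adjusted p 2.66e-06 and 6.42e-05), as did Stat5a, at -0.56 ± 0.21 and -0.37 ± 0.15 (0.0288 and 0.0396), in the authors' deposited tables. Irf5, Irf8 and Stat6 were not called in either condition. Calls thus made up 40% of the 5 in each condition, near the 32.7% with Adriamycin and 37.5% with vehicle of all genes tested.

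Upstream of these factors little interferon mRNA was counted in MEFs. Of 16 interferon genes looked for, 13 were listed and none had enough reads for an adjusted p. With Adriamycin 7 of the 13 were listed at 0 and the highest mean count was 0.585, for Ifng, and with vehicle 12 were at 0 and Ifna2 alone had reads, at 0.163, in the authors' deposited tables. Ifnb1 was at 0.170 with Adriamycin and at 0 with vehicle in the authors' deposited tables.

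Receptors and Janus kinases changed little in MEFs. With Adriamycin 2 of 10 tested genes rose, Jak3 (0.97 ± 0.18) and the interferon gamma receptor chain Ifngr2 (0.37 ± 0.09), and with vehicle 1 of 9, Ifngr2 (0.28 ± 0.09), in the authors' deposited tables. Calls made up 20% of the list with Adriamycin and 11.1% with vehicle, against 32.7% and 37.5% of all genes tested. The list median was -0.08 with Adriamycin and 0.00 with vehicle, against -0.02 and 0.01 over all genes tested. The type I receptor genes Ifnar1 and Ifnar2 were at -0.09 and 0.01 with Adriamycin and both at 0.00 with vehicle in the authors' deposited tables, and neither was called.

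Among sensors, adaptors and kinases that act on IRF3 and IRF7, 5 rose and 3 fell of 23 tested with Adriamycin, and 9 rose and 3 fell of 23 with vehicle. The share called was 34.8% with Adriamycin, near the 32.7% of all genes, and 52.2% with vehicle, against 37.5%. The RNA sensor Ifih1 rose by 0.51 ± 0.18 with Adriamycin and 2.13 ± 0.25 with vehicle, and the DNA-binding Ifi204 by 1.06 ± 0.37 and 2.24 ± 0.39, in the authors' deposited tables. Ddx58, which encodes the sensor RIG-I, was at 0.25 with Adriamycin, where it was not called, and rose by 1.57 ± 0.16 with vehicle in the authors' deposited tables. Tmem173, the gene of the adaptor STING, fell in both: it was at -0.89 ± 0.16 with Adriamycin and -1.08 ± 0.11 with vehicle in the authors' deposited tables. Tbkbp1, which encodes a binding partner of the kinase TBK1, rose by 0.54 ± 0.11 with Adriamycin, and Tlr3 (-0.94 ± 0.28) fell there, as did Irak4 (-0.51 ± 0.16) with vehicle, in the authors' deposited tables.

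Of 15 genes that restrain the pathway, 4 rose with Adriamycin, and 3 rose and 1 fell with vehicle. The share called, 26.7% in each, was below that of all genes. Usp18, whose protein blocks signalling at the type I receptor, rose by 2.24 ± 0.26 with Adriamycin and 5.16 ± 0.49 with vehicle in the authors' deposited tables. Pias3 rose by 0.30 ± 0.10 and 0.46 ± 0.14 and Irf2bp2, a corepressor partner of IRF2, by 0.28 and 0.38 in the authors' deposited tables. The cytokine signalling suppressor Socs2 fell with vehicle (-0.90 ± 0.22 in the authors' deposited table), and Socs1 and Socs3 were not called in either condition.

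Downstream, 18 of 31 tested ISGF3 targets rose and 1 fell with Adriamycin, and 30 of 32 rose and 1 fell with vehicle. The share called was 61.3% with Adriamycin and 96.9% with vehicle, against 32.7% and 37.5% of all genes tested. The targets had a median log2 fold change of 0.68 with Adriamycin and 2.88 with vehicle, against -0.02 and 0.01 over all genes. Their list was written with earlier results of these data known. The antiviral membrane protein gene Bst2 (2.23 ± 0.23), Ifi44 (2.00 ± 0.31) and Pml (0.62 ± 0.10) were called with the smallest adjusted p with Adriamycin, and Ifit3 (3.85 ± 0.27), Ifit1 (4.42 ± 0.32) and Ifi44 (5.50 ± 0.40) with vehicle, in the authors' deposited tables. The gene that fell was Samhd1, a dNTP hydrolase, at -0.72 ± 0.18 with Adriamycin and -0.67 ± 0.11 with vehicle in the authors' deposited tables. For 19 of the 31 targets tested in both, and for none in the other direction, the effect was called lower with Adriamycin. Of all genes tested in both, 3.61% were called lower and 3.49% higher.

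Of genes of antigen presentation and other targets of IRF1 or NLRC5, 8 of 16 rose with Adriamycin (median 0.73). With vehicle 12 of 16 rose (median 1.38), and none was lower in either. The share called was 50% with Adriamycin and 75% with vehicle, against 32.7% and 37.5% of all genes. The transactivator Nlrc5 rose by 1.76 ± 0.18 with Adriamycin, and the transporter Tap1 by 2.10 ± 0.15 and the GTPase Irgm1 by 2.05 ± 0.15 with vehicle, in the authors' deposited tables. Irf1 itself was not called in these comparisons. Of 18 gp130 and STAT3 genes, 4 fell and none rose with Adriamycin, and 3 rose and 4 fell with vehicle. The share called was 22.2% with Adriamycin and 38.9% with vehicle, against 32.7% and 37.5% of all genes, so these counts show nothing particular to the list. The shared receptor Il6st fell in both, at -0.44 ± 0.13 with Adriamycin and -0.45 ± 0.13 with vehicle in the authors' deposited tables.

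**Figure D5:**
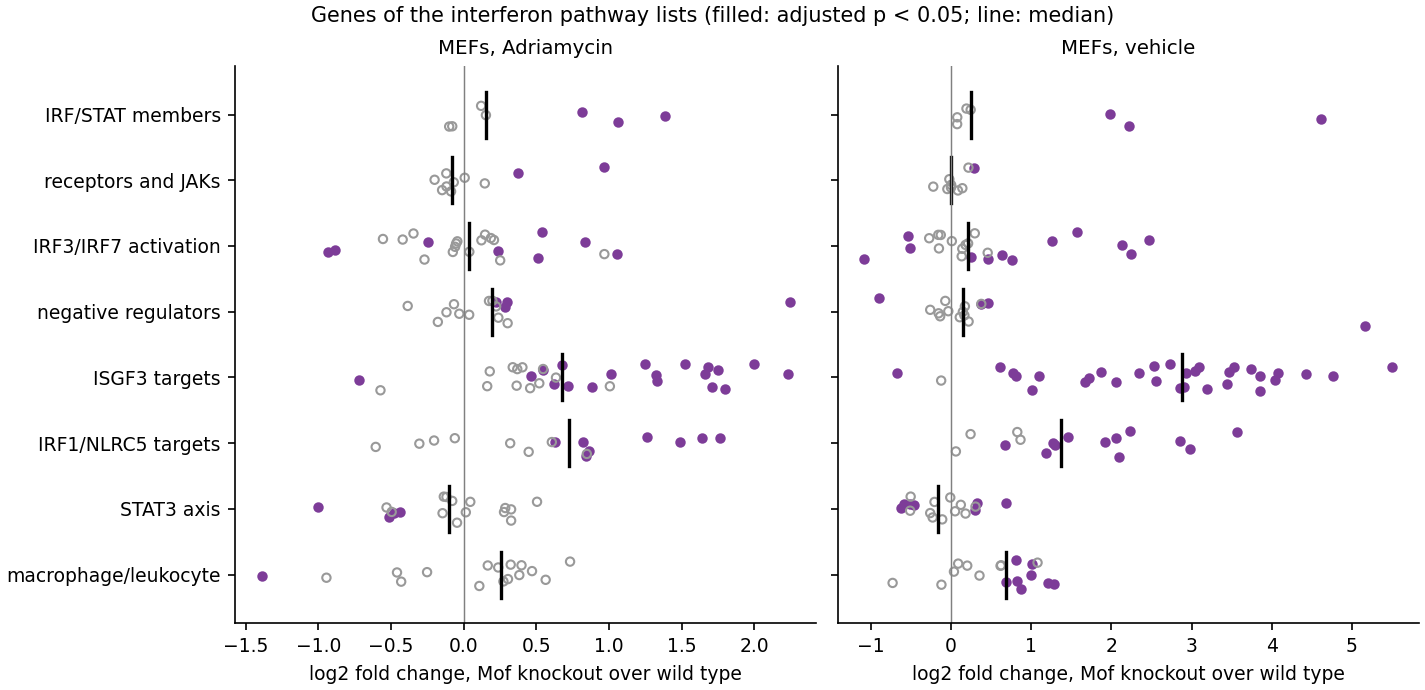
Log2 fold change of Mof knockout over wild-type MEFs for each tested gene of 8 lists, with Adriamycin (left) and vehicle (right). Filled points passed an adjusted p of 0.05 and black lines are medians; ISGF3 targets have a median of 0.68 with Adriamycin and 2.88 with vehicle, and receptors and JAKs medians of -0.08 and 0.00.

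The promoter letters were also set against the changes of all genes whose symbol has a RefSeq promoter. Among tested genes with ISRE letters, 17.8% were called higher and 17.8% lower with Adriamycin, close to the 17.6% and 17.3% of all genes with a promoter. With vehicle 26.3% were called higher and 17.1% lower, against 18.9% and 21.9% of all. At a minimum of 2-fold with Adriamycin, 19 of the 359 tested genes with ISRE letters rose at least 2-fold, against 239 of all 10004 (2.39%). With vehicle 51 of 392 genes with ISRE letters did, against 560 of all 10584 (5.29%). For genes with GAS letters the shares were 2.48% with Adriamycin and 6.28% with vehicle. Of 25 ISGF3 targets with a promoter in the table, 11 held ISRE letters, against 3.99% of all 27025 genes with a promoter. ISGF3 binds the ISRE and the list was written with earlier results known, so this count is not independent of how the list was chosen.

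Some macrophage and leukocyte genes were called higher in knockout MEFs with vehicle, and none with Adriamycin. None of 16 tested rose and 1 fell with Adriamycin, Cx3cr1 (-1.39 ± 0.41 in the authors' deposited table), and 8 of 17 rose with vehicle. The share called was 6.25% with Adriamycin and 47.1% with vehicle, against 32.7% and 37.5% of all genes tested. The summed implied level of the 17 markers was 7393 in knockout and 5647 in wild-type MEFs with Adriamycin, and 5683 in knockout and 3106 in wild-type MEFs with vehicle. Lyz2 alone made up 3275 in knockout and 1972 in wild-type cells with Adriamycin, where it was not called, and 2731 in knockout and 1117 in wild-type cells with vehicle, the largest part of the difference in each sum. Emr1 (1.21 ± 0.25), C1qa (1.01 ± 0.27) and Lyz2 (1.29 ± 0.36) rose with vehicle in the authors' deposited table, none of the 17 markers was at 0, and Csf1r was at -0.43 with Adriamycin and -0.12 with vehicle, not called. Their part in the changes of the IRF and STAT genes was not tested.

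In podocytes with a Mof knockdown Irf1, Irf7 and Stat3 were called under both drug conditions, and Stat2, Irf9 and Irf2 with Adriamycin. With Adriamycin 6 of the 7 genes passed the threshold, 4 higher and 2 lower, where 55.7% of all 17184 genes tested did (27.8% higher and 27.9% lower). With vehicle 3 of the 7 passed, all higher, where 14.3% of 13876 genes did (8.70% higher and 5.64% lower). None of these changes reached 2-fold.

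Irf7 was at 0.43 ± 0.11 in podocytes with Adriamycin (DESeq2 adjusted p 0.000325) and 0.96 ± 0.24 with vehicle (0.00141) in the authors' deposited tables. The fold increases are 1.35 with Adriamycin and 1.94 with vehicle, where MEFs had 2.61 and 24.4, a difference that was not tested. Cell type, knockout or knockdown, Adriamycin dose and passage all differ between these experiments and cannot be told apart. Implied Irf7 levels were 487 in knockdown and 361 in scramble podocytes with Adriamycin, and 176 in knockdown and 90.6 in scramble podocytes with vehicle. As in MEFs, control cells given vehicle had the lowest implied level. Irf1 rose in podocytes, by 0.50 ± 0.06 with Adriamycin (DESeq2 adjusted p 1.25e-14) and 0.40 ± 0.11 with vehicle (0.00295) in the authors' deposited tables. Its mean count was 1414 with Adriamycin and 2283 with vehicle, against 281 and 369 in MEFs, tables normalized apart from each other.

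Stat2 and Irf9 rose in podocytes with Adriamycin, by 0.58 ± 0.09 (DESeq2 adjusted p 2.37e-09) and 0.28 ± 0.11 (0.0216), in the authors' deposited table. Neither is listed with vehicle. Irf2 fell with Adriamycin, at -0.25 ± 0.07 (DESeq2 adjusted p 0.00143, authors' deposited table), and is not listed with vehicle. Irf3 is listed in neither podocyte table.

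Stat3 took opposite signs in podocytes. It was lower with Adriamycin, at -0.33 ± 0.07 (DESeq2 adjusted p 1.52e-05), and higher with vehicle, at 0.57 ± 0.09 (5.94e-08), in the authors' deposited tables. The difference was -0.90 ± 0.12 (z test, adjusted p 1.00e-13 over the 1518 genes listed in both podocyte tables). That test was added after seeing the data and covers only genes past the threshold in both tables, of which 521 (34.3%) had opposite signs. A gene called with opposite signs differs by that choice alone, so for Stat3 the value describes the size of the difference and adds no evidence to the 2 calls. Irf1 and Irf7, the other members in both tables, differed by 0.10 ± 0.12 (z test, adjusted p 0.515) and -0.52 ± 0.27 (0.0755). Implied Stat3 levels were 959 in knockdown and 1206 in scramble podocytes with Adriamycin, and 2632 in knockdown and 1778 in scramble podocytes with vehicle.

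The genes around STAT3 in podocytes did not all share its sign. With vehicle 5 were listed as higher, among them the STAT3-induced inhibitor Socs3 (1.66 ± 0.20), Bcl3 (0.85 ± 0.21) and the receptors Lifr (0.73 ± 0.16), Osmr (0.59 ± 0.15) and Il6st (0.43 ± 0.08), and the cytokine Lif was lower (-0.35 ± 0.10), in the authors' deposited table. With Adriamycin 7 of the 20 were listed as higher and 3 as lower. The shares over all genes tested were 27.8% higher and 27.9% lower with Adriamycin, and 8.70% and 5.64% with vehicle. Il6st (0.96 ± 0.05), the cytokine Clcf1 (1.31 ± 0.07) and Lif (0.62 ± 0.05) were higher and Junb (-0.70 ± 0.07) and Il6ra (-0.92 ± 0.11) lower, in the authors' deposited table.

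Podocyte receptors and kinases were lower for the most part with Adriamycin, where 6 of 10 were listed as lower and 1 as higher. Among all genes tested, 27.9% were called lower and 27.8% higher with Adriamycin, and 5.64% and 8.70% with vehicle. Ifngr2 was at -1.32 ± 0.06, Tyk2 at -0.71 ± 0.08 and Ifnar2 at -0.60 ± 0.10 in the authors' deposited table. With vehicle Ifngr2 was lower too (-0.66 ± 0.13), and Ifngr1 (0.27 ± 0.09) and Jak2 (0.35 ± 0.08) higher, in the authors' deposited table. Of 25 genes acting on IRF3 and IRF7, 10 were listed as higher and 8 as lower with Adriamycin, among them Ifi204 (1.66 ± 0.14), Ddx58 (1.10 ± 0.21) and Tmem173 (0.90 ± 0.16) as higher and the adaptor Mavs (-0.93 ± 0.07) and Tbkbp1 (-2.76 ± 0.23) as lower, in the authors' deposited table. With vehicle the kinase Ikbke alone was listed (-0.60 ± 0.13 in the authors' deposited table).

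ISGF3 targets in podocytes were listed as higher for 17 and lower for 3 of 32 with Adriamycin, and as higher for 7 of 32 with vehicle. Of all genes tested, 27.8% were called higher and 27.9% lower with Adriamycin, and 8.70% and 5.64% with vehicle. How many genes of each list were tested in podocytes is unknown. Ifit3 was at 3.67 ± 0.31 with Adriamycin and 1.26 ± 0.18 with vehicle, and Ifit2 at 2.20 ± 0.09 and 0.55 ± 0.09, in the authors' deposited tables. Isg15 (-0.48 ± 0.10), Ifi35 (-0.71 ± 0.06) and Pml (-0.32 ± 0.05) were lower with Adriamycin in the authors' deposited table. Usp18 was lower with Adriamycin (-1.32 ± 0.07) and higher with vehicle (0.57 ± 0.21) in the authors' deposited tables. Among the targets of IRF1 or NLRC5, 8 were higher and 5 lower with Adriamycin, and 6 were higher with vehicle. Gbp2 was at 1.69 ± 0.14 with Adriamycin and 1.44 ± 0.45 with vehicle in the authors' deposited tables. Tap1 was at -0.43 ± 0.04 with Adriamycin in the authors' deposited table. Irf8 was higher and Irf5 lower in both podocyte tables: Irf8 was at 1.19 ± 0.18 with Adriamycin and 0.56 ± 0.17 with vehicle, and Irf5 at -0.57 ± 0.18 and -0.65 ± 0.19, in the authors' deposited tables. A single macrophage marker was listed with vehicle, Csf1r (1.15 ± 0.21 in the authors' deposited table), and 6 with Adriamycin, 3 higher and 3 lower, with Csf1r at 2.65 ± 0.18 there. Their part in the podocyte results was not tested.

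Several of the genes overlap a neighbour, and whether reads were assigned by strand is unknown. On GRCm38, Irf7 (ENSMUSG00000025498, chromosome 7, 141262706 to 141266481, minus strand) shares 45 bases with Phrf1, which was at 0.07 and -0.06 in MEFs with Adriamycin and vehicle, not called in the authors' deposited tables. Irf9 (ENSMUSG00000002325, chromosome 14, 55603571 to 55610030) shares 123 bases with Rnf31 on the same strand, at 0.15 and 0.26, also not called. Stat3 (chromosome 11, 100885098 to 100939540) shares 72 bases with Stat5a. Irf3 (chromosome 7, 44997648 to 45002848) shares 1065 bases with Bcl2l12, which was lower in MEFs with vehicle (-0.57 ± 0.14 in the authors' deposited table), and reads of the shared bases cannot be told apart without strand. Stat2 (ENSMUSG00000040033, chromosome 10, 128270559 to 128292849) overlaps no annotated gene. Irf1 (chromosome 11, 53770014 to 53778374) spans Gm17334, which had at most 0.16 normalized counts in MEFs, and Irf2 (chromosome 8, 46739732 to 46847458) spans antisense loci that the MEF tables do not list.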

How the data were processed

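Per the file headers, the deposited tables are DESeq2 output. Their signal is a mean of counts that the authors divided by size factors. Also deposited are log2 fold changes with SE, a score (Wald statistic), a p-value and an adjusted p-value (Benjamini-Hochberg). The submitters' processing notes name TopHat2 2.0.13, featureCounts 1.4.5-p1, DESeq2 1.4.1 and GRCm38. No fold change exceeded 1.02 in size among genes with a mean count below 1, which fits shrunken fold changes. Depth per sample is unknown, and the SE of the tables sets the precision.

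The 7 genes and the pathway lists were chosen with earlier results of these data known. The number of genes tested in podocytes was recovered from the ratio of adjusted p to p. Differences between drug conditions were tested in Python 3.11.15 with scipy 1.17.1, after a check on simulated data. The simulated noise followed the SE that the test uses and held no shrinkage. The check thus covers the computation and not these assumptions. Group levels were computed from the mean count and fold change. Named list genes are, per MEF table, up to 3 called higher and 2 called lower, ranked by adjusted p. In podocytes they are those listed, not all of which are reported. Genes chosen beyond this rule, after their values were seen, are Ddx58 and Irf2bp2 with Adriamycin, Ifnar1, Ifnar2, Socs1, Socs3 and the genes named as not called. The alternatives were other thresholds, gene sets for the adjustment, centring and a 2-fold minimum. Gene positions and exon lengths come from GENCODE M21 (GRCm38). Some genes of these pathways are not reported here.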

Additional observations from a re-analysis of the deposited data

Results flagged for a closer look

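The effect of Mof knockout in MEFs differed between drug conditions for 3 of the 7 genes by the z test on the difference of fold changes. Subtracting the vehicle from the Adriamycin log2 fold change gave -3.22 for Irf7, -1.17 for Irf9 and -1.16 for Stat2. In podocytes the effect of the knockdown on Stat3 differed by -0.90 between Adriamycin and vehicle, with opposite signs in the deposited tables. The podocyte value was computed after seeing the data, over genes past the threshold in both tables, where opposite signs already imply a difference, so it adds no evidence to the 2 calls. In MEFs the other 4 genes of the 7 did not pass the test. In podocytes Irf1 and Irf7 did not, and Irf2, Irf3, Irf9 and Stat2 could not be tested, being absent from at least 1 table.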

How the results depend on the processing

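A minimum of 2-fold was the alternative that changed most: none of the podocyte changes met it, so the count of called genes was 0 with Adriamycin and 0 with vehicle, against 6 and 3 without it. It also left 2 of 3 calls in MEFs with Adriamycin, losing Irf9. At an adjusted p below 0.01, Irf9 was no longer called in podocytes with Adriamycin (adjusted p 0.0216, DESeq2). At 0.1, Stat3 was called in MEFs with vehicle (adjusted p 0.0875, DESeq2). Of the values of single genes under an alternative, 121 kept their side of the threshold, 11 lost and 1 gained the call. Other thresholds and gene sets reuse the same fold change and p, so they could not change a sign. Centring alone altered fold changes, and no called value changed sign under it. The z test called 3 of the 7 genes in MEFs under each of its 4 alternatives. The test in podocytes was added after seeing the data. No paired analysis was possible because the files hold no value per sample, which also bars leaving out a replicate.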
